A study of Mus musculus with 3 samples.

Results

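The matrix proteases and their inhibitors described here are the genes whose array name begins with Mmp, Adam, Adamts or Timp followed by a digit. The array held 73 of them, represented by 123 probes, among 19711 named genes. They comprised 21 matrix metalloproteinases (Mmp), 30 membrane-anchored disintegrin metalloproteinases (Adam), 18 secreted disintegrin metalloproteinases with thrombospondin motifs (Adamts) and 4 tissue inhibitors of metalloproteinases (Timp). Membership follows the name alone, and no signal value enters the rule.

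Total RNA from C57BL/6 mice was measured in adult liver taken from mice aged 12 weeks, in bone marrow, and in fetal liver of gestation day 13.5. The labels' wording does not settle whether the age of 12 weeks also applies to the marrow donors, and sex and the number of animals pooled are not given. Each tissue was hybridised to 1 array (n = 1), labelled with Cy3 alone, so no value below has a replicate, an SD across samples or a test, and every comparison describes these 3 RNA samples. The design text states the aim only as a comparison of expression between the tissues.

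Metalloproteinases of these families use a zinc ion to cut extracellular matrix or the outer parts of membrane proteins. Mmps are made as inactive precursors and, between them, cut collagens, gelatin, proteoglycans and other matrix proteins. Adams are best known as sheddases that release growth factors, cytokines and receptors from the cell surface, although several lack a working catalytic site or belong to sperm. Adamts enzymes cut proteoglycans, process procollagens or trim von Willebrand factor, and Timps bind the active enzymes and block them. In bone marrow, neutrophils store some of these enzymes in granules, and in liver the stellate, endothelial and macrophage cells are known sources.

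Each signal is given as a scaled signal, which is the processed signal divided by the 75th percentile of the gene spots on its array, so that a gene at that percentile has the value 1. The percentile lay at 296.5 on the adult liver array, 894.5 on the bone marrow array and 386.0 on the fetal liver array, and between 52.6% and 58.8% of gene spots were well above background by the scanner's flag. Probes printed 10 times on an array had a median coefficient of variation between 3.87% and 4.71%, which covers spot error only. No spot was saturated. A fold of 4 or more was taken as a difference. If the flag was off in a single tissue of the pair, the fold is a limit and is written "at least". The dim tissue then entered with its own signal or with the faintest flagged signal of that array, whichever was higher, and the faintest flagged scaled signals were 0.0637 in adult liver, 0.0265 in bone marrow and 0.0389 in fetal liver. With the flag off in both tissues, no fold was formed. None was formed either where the flagged signal did not exceed the value entered for the dim tissue. Levels of different genes come from different probes and are not compared. In such bulk samples, fewer cells of a type and less RNA per cell cannot be told apart.

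The tissue labels matched their defining markers. Hepatocyte markers (Alb, Ttr, Apoa1, Ahsg and Fgb) were well above background for 5 of 5 genes in adult liver, 2 of 5 in bone marrow and 5 of 5 in fetal liver. Fetal hepatoblast markers (Afp, Dlk1 and Gpc3) were well above background for 1 of 3 genes in adult liver, 1 of 3 in bone marrow and 3 of 3 in fetal liver. Neutrophil markers (Elane, Mpo, Ltf, Camp, Ngp, S100a8, S100a9 and Lcn2) were well above background for 3 of 8 genes in adult liver and for 8 of 8 in both other tissues.

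The flag was on for 29 of the 73 genes in adult liver (39.7%), 43 in bone marrow (58.9%) and 42 in fetal liver (57.5%). It was on for 65.4%, 70.7% and 70.4% of all named genes in the same order of tissues, so adult liver was lowest there too. Of the 73 genes, 24 (32.9%) were well above background in all 3 tissues, against 59.3% of all named genes. Another 24 (32.9%) were not well above background in any, against 22.2%. The undetected genes comprised 7 Mmps, 11 Adams, 6 Adamts genes and no Timp.

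Adult liver against fetal liver gave 44 genes with a fold or a bound. Of these, 4 (9.09%) were 4-fold or more higher in adult liver, beside 14.1% of all named genes compared, and 3 (6.82%) were at least 4-fold lower, beside 12.1%. Bone marrow against fetal liver gave 46 genes, of which 7 (15.2%) were at least 4-fold higher in marrow, beside 8.29%, and 7 (15.2%) were at least 4-fold lower, beside 9.33%. Adult liver against bone marrow gave 39 genes, of which 11 (28.2%) were 4-fold or more higher in adult liver, beside 18.8%, and 8 (20.5%) were at least 4-fold lower, beside 15.0%. The median log2 fold over the genes measured on both arrays was -0.35 for adult over fetal liver (27 genes), beside 0.029 for all genes. It was -0.61 for bone marrow over fetal liver (38 genes), beside -0.25, and 0.42 for adult liver over bone marrow (24 genes), beside 0.16. The comparisons share arrays and are not independent.

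**Figure D1:**
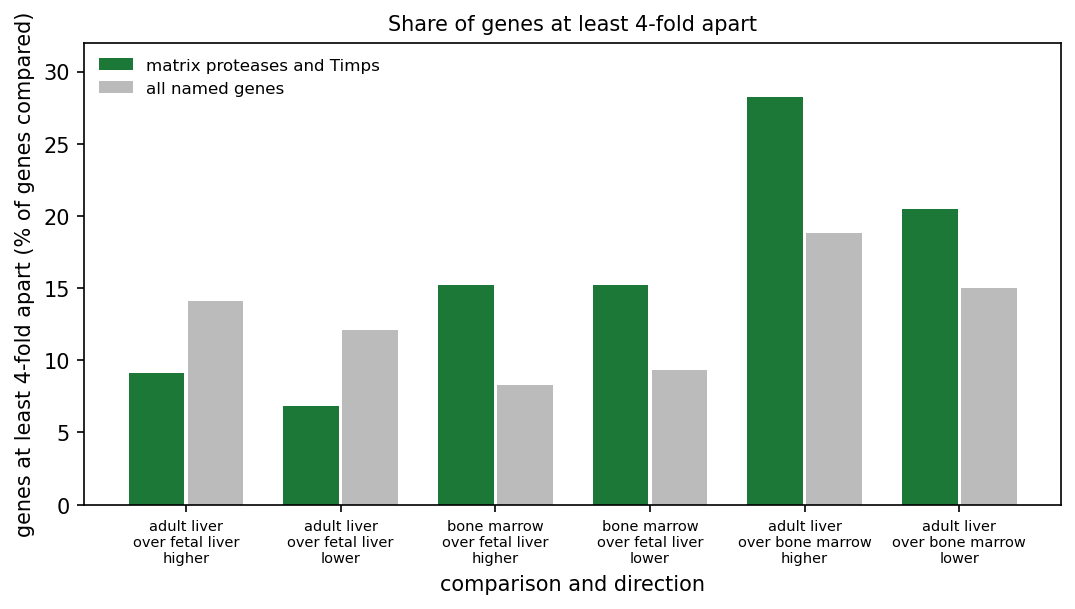
Share of genes at least 4-fold apart, as a percentage of the genes compared, for each of the 3 comparisons and each direction. Green bars are the matrix proteases and Timps and grey bars all named genes. The green bars are lower than the grey ones for adult over fetal liver (9.09% and 6.82% against 14.1% and 12.1%) and higher in the comparisons with bone marrow. The green bars for adult over fetal liver rest on 4 and 3 of 44 genes. Under median scaling and quantile normalization, 6 of 43 and 6 of 42 genes were higher in adult liver, beside 14.9% and 14.2% of all named genes.

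The calls are given by family, with small counts in each, and no difference between families was tested. Of all named genes compared, 8.29% were at least 4-fold higher in bone marrow than in fetal liver and 9.33% lower. Among Adamts genes, none of 12 was higher in that comparison and 4 were lower. Among Adams, 3 of 17 were higher in that comparison and none was lower, and among Mmps 4 of 13 were higher and 3 lower. Between adult and fetal liver, 3 of 17 Adams, 1 of 11 Mmps and none of 12 Adamts genes were higher in adult liver, while none, 1 and 2 were lower. The shares of all named genes were 14.1% higher and 12.1% lower there. Between adult liver and bone marrow, 4 of 14 Adams, 4 of 12 Mmps and 3 of 10 Adamts genes were higher in adult liver, and 4, 4 and none were lower. The shares of all named genes were 18.8% and 15.0%. No Timp was called 4-fold apart, although Timp4, not well above background in adult liver, had no fold against bone marrow there and was at least 1.40-fold below fetal liver.

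These counts depend on the scaling. On the spike-in controls in place of the 75th percentile, the median of all genes moved by 2.31 (log2) for bone marrow over fetal liver, by -2.84 for adult liver over bone marrow and by -0.53 for adult over fetal liver. The members then split into 19 higher and 2 lower in bone marrow than in fetal liver, beside 53.7% and 2.22% of all genes. They split into 2 higher and 32 lower in adult liver than in bone marrow, beside 5.81% and 66.5%, and into 3 higher and 7 lower in adult than in fetal liver, beside 10.2% and 18.1%. All changes below are therefore relative to the 75th percentile of each array.

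**Figure D2:**
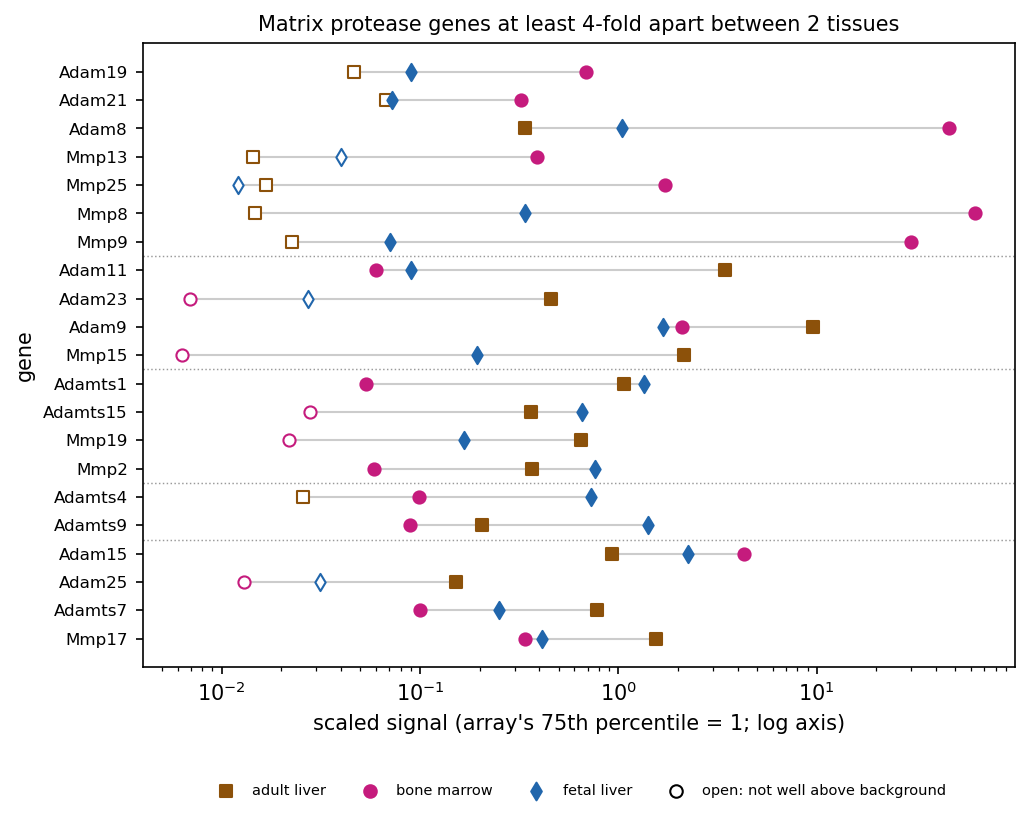
Scaled signal on a log axis (array's 75th percentile = 1) of the 21 genes that were at least 4-fold apart in a comparison, in adult liver (squares), bone marrow (circles) and fetal liver (diamonds). Open symbols were not well above background, and dotted lines separate, from top to bottom, genes highest in bone marrow, genes highest in adult liver, genes lowest in bone marrow, genes highest in fetal liver, and genes 4-fold apart between adult liver and bone marrow alone.

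Bone marrow stood above both livers in the leukocyte enzymes Mmp8, Mmp9 and Mmp25 and in Mmp13, a collagenase of bone and cartilage. Mmp8 is the neutrophil collagenase, and its probe lies at chr9:7568238-7568297 (mm9, plus strand). Its scaled signal was 0.0148 in adult liver, where it was not well above background, 62.7 in bone marrow and 0.337 in fetal liver. Bone marrow was thus 186-fold above fetal liver, and adult liver was at least 984-fold below bone marrow and at least 5.28-fold below fetal liver. With normexp background correction, which adds an offset of 50 to the signals, the last of these fell short of 4-fold, at a log2 fold of -1.06.

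Mmp9 is gelatinase B, which cuts denatured collagen and collagen IV and is stored in neutrophil granules (probe at chr2:164780620-164780679). The probe was printed 10 times on each array, and its scaled signal averaged 0.0237 ± 0.00803 in adult liver, where 0 of 10 spots were well above background. It averaged 30.0 ± 0.849 over 10 spots in bone marrow and 0.0710 ± 0.00789 over 9 spots in fetal liver, where 1 spot with an outlier flag was left out (SD over spots, which measures spot error only). No spot in either liver came near the lowest marrow spot. The log2 fold of bone marrow over fetal liver was 8.73, with a scanner error of 0.27, or 424-fold, and a further probe of the gene gave 701-fold. Adult liver was at least 470-fold below bone marrow.

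Mmp25, a membrane-type Mmp known from human leukocytes, had scaled signals of 0.0168 in adult liver, 1.71 in bone marrow and 0.0121 in fetal liver, with bone marrow alone well above background (chr17:23767090-23767149, minus strand). Bone marrow was at least 44.0-fold above fetal liver, and adult liver was at least 26.8-fold below bone marrow. Mmp13 had 0.0144 in adult liver, 0.390 in bone marrow and 0.0402 in fetal liver, again well above background in marrow alone (chr9:7282762-7282821). Bone marrow was at least 9.72-fold above fetal liver, and adult liver at least 6.12-fold below bone marrow. With normexp background correction the Mmp13 bounds shrank below 4-fold, to log2 values of 1.40 and -1.15.

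Summed markers of neutrophils, mast cells and basophils, B cells, and T and NK cells were highest in bone marrow, as were these genes. The osteoblast sum was highest in adult liver, and the osteoclast sum was nearly the same in bone marrow and fetal liver. For neutrophils, the summed scaled signal over 8 genes was 2.87 in adult liver, with Elane, Mpo, Ltf, Camp and Ngp not well above background, 1868 in bone marrow and 147 in fetal liver. All 8 were at least 4-fold higher in bone marrow than in fetal liver, with a median of 108-fold, and at least 4-fold lower in adult liver than in bone marrow. Mast cell and basophil markers (Cpa3, Fcer1a and Mcpt8) summed to 0.145 in adult liver, 17.5 in bone marrow and 0.308 in fetal liver, with 3 of 3 at least 4-fold higher in bone marrow than in fetal liver. T and NK markers (Cd3e, Cd3g, Lck, Klrb1c and Gzma) summed to 0.750, 4.06 and 0.993 in the same order of tissues, with 3 of 5 higher. Osteoblast markers (Bglap, Sp7, Ibsp and Alpl) were well above background for 1 of 4 genes in adult liver, 4 of 4 in bone marrow and 2 of 4 in fetal liver, with sums of 4.42, 2.04 and 2.14, the adult liver sum being almost all Alpl. Osteoclast markers (Acp5, Ctsk, Calcr, Ocstamp and Oscar) were so for 3, 4 and 3 of 5 genes, with sums of 7.46 in adult liver, 14.2 in bone marrow and 13.8 in fetal liver. The part of these cells in the Mmp differences was not tested.

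Mmp13 and Mmp8 belong to a run of 8 Mmp genes whose probes span 414 kb of chromosome 9 (mm9), in the order Mmp13, Mmp12, Mmp3, Mmp1a, Mmp10, Mmp8, Mmp20 and Mmp7. The other 6 genes of the run were not well above background in any tissue. These include Mmp3 and Mmp10, the stromelysins, which cut a broad range of matrix proteins, and Mmp12, the macrophage elastase. Their nearest neighbours in the run were 58.2 kb (Mmp10 to Mmp8) and 72.0 kb (Mmp13 to Mmp12) from the genes that were high in marrow. The dim probes lay between 0.0132 and 0.0755 in adult liver, between 0.00546 and 0.0275 in bone marrow and between 0.00806 and 0.0298 in fetal liver.

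**Figure D3:**
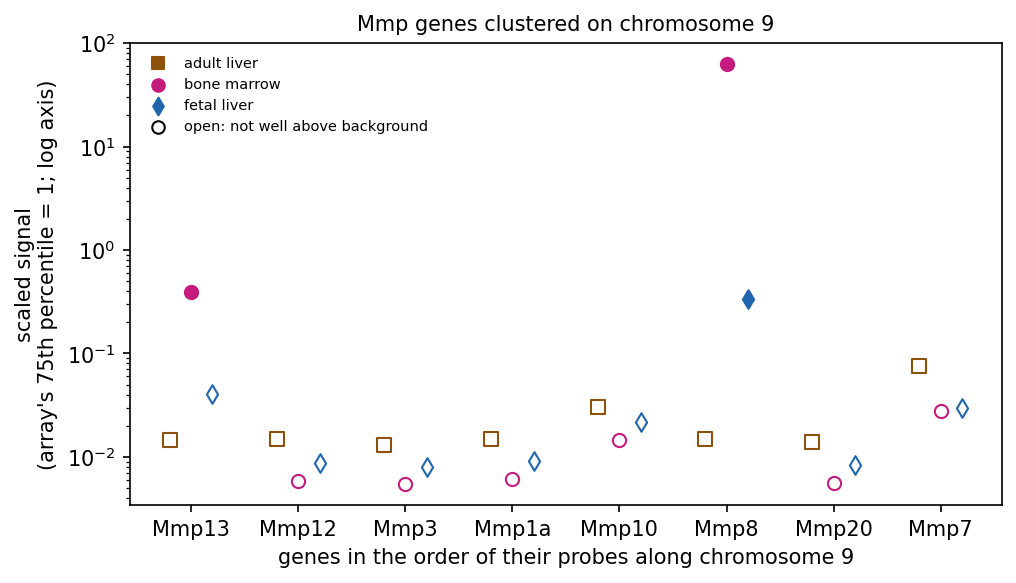
Scaled signal on a log axis (array's 75th percentile = 1) of the 8 Mmp genes clustered on chromosome 9, in the order of their probes, in adult liver (squares), bone marrow (circles) and fetal liver (diamonds). Filled symbols were well above background, which was the case for Mmp13 in bone marrow (0.390) and for Mmp8 in bone marrow (62.7) and fetal liver (0.337).

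Promoters of 4 genes of this run are shown to set the pair that was measured in marrow beside a pair that was dim everywhere. Each is the RefSeq window of 250 bases before to 50 bases after the annotated start (GRCm38.p6, plus strand), at chr9:7558179-7558478 for Mmp8, chr9:7272264-7272563 for Mmp13, chr9:7445572-7445871 for Mmp3 and chr9:7502092-7502391 for Mmp10. Capitals mark matches, on either strand, to the AP-1 letters TGANTCA, the Ets letters AGGAAGT or the TATA letters TATAAA. No 2 matches overlap in these windows.
Mmp8: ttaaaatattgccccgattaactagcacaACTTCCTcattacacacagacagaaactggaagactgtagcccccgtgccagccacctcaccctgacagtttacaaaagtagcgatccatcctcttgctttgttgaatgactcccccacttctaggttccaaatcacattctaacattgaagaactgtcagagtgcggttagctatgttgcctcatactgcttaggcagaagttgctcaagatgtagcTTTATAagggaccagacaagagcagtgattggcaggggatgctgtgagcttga
Mmp13: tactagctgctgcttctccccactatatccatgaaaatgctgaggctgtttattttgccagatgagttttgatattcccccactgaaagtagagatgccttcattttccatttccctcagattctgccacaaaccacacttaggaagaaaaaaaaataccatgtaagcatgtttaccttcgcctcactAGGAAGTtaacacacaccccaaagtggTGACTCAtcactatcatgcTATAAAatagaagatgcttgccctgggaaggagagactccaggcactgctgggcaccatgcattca
Mmp3: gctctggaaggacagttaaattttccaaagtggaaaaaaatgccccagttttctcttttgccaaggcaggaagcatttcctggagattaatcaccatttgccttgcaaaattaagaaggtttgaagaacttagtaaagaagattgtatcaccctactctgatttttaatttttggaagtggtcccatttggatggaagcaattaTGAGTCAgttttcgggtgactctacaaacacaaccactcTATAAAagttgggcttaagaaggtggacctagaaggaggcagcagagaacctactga
Mmp10: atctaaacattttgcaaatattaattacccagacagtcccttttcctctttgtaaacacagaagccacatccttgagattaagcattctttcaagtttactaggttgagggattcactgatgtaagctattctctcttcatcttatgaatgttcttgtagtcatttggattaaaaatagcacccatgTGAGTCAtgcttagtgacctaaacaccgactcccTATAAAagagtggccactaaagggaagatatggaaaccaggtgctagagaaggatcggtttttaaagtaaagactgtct

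In distance from the first base of the match to the annotated start, the AP-1 letters stood at -35 in Mmp13, -46 in Mmp3 and -63 in Mmp10. They were not found in the Mmp8 window, which had the Ets letters at -221. Mmp13 also had the Ets letters, at -62. The table held promoters for 41 of the 73 genes, in 46 windows. The AP-1 letters were found in 23.9% of those windows and in 7.81% of all 32851 promoter windows, and 7 of the 11 genes with them were Mmps of the chromosome 9 run. The Ets letters were found in 15.2% of member windows and 9.35% of all, and the TATA letters in 23.9% and 13.6%. Of the 7 genes that were highest in bone marrow, 6 had windows, and Mmp9 had none. The AP-1 letters were found in 2 of their 8 windows, that of Mmp13 and 1 of Adam19 (at -131), whose other windows lacked them. None of the 3 motifs was found in the window of Mmp25 or Adam8. A match is a string of letters in this window and says nothing about binding in these tissues.

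Bone marrow was lowest in Mmp2, Mmp15 and Mmp19. Mmp15, the membrane-anchored MT2-MMP (chr8:97897703-97897762), had scaled signals of 2.15 in adult liver, 0.00634 in bone marrow, where it was not well above background, and 0.195 in fetal liver. Adult liver was 11.0-fold above fetal liver and at least 81.0-fold above bone marrow, and bone marrow was at least 7.34-fold below fetal liver. Mmp19, a secreted Mmp without a gelatin-binding insert (chr10:128236221-128236280), had 0.651 in adult liver, 0.0218 in bone marrow, again not well above background, and 0.166 in fetal liver. Adult liver was at least 24.6-fold above bone marrow and bone marrow at least 6.28-fold below fetal liver. Adult over fetal liver, at 3.91-fold, fell just short of the threshold by less than its scanner error of 0.22 (log2).

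Mmp2, gelatinase A (chr8:95376840-95376899), had scaled signals of 0.368 in adult liver, 0.0585 in bone marrow and 0.764 in fetal liver, all well above background. Bone marrow was 13.1-fold below fetal liver and adult liver was 6.29-fold above bone marrow, while adult liver was 2.08-fold below fetal liver. Of the 2 gelatinases, Mmp2 was thus lowest and Mmp9 highest in bone marrow. Mmp17, the membrane-anchored MT4-MMP (chr5:130113835-130113894), had 1.55 in adult liver, 0.340 in bone marrow and 0.415 in fetal liver. Adult liver was 4.57-fold above bone marrow and 3.74-fold above fetal liver, both within the scanner error of 0.21 (log2) of the threshold. A second Mmp17 probe was not well above background in any tissue, so these folds rest on the probe used. Under spike-in scaling, bone marrow over fetal liver shrank to log2 folds of -0.57 for Mmp15, -0.34 for Mmp19 and -1.40 for Mmp2, and adult liver over bone marrow shrank to 1.78 for Mmp19 and turned negative for Mmp2 (log2 -0.19) and Mmp17 (log2 -0.65). With normexp background correction, bone marrow over fetal liver was -1.65 for Mmp15 and -1.72 for Mmp19, and adult liver over bone marrow was 1.91 for Mmp2 and 1.93 for Mmp17.

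Mmp14, which is MT1-MMP and activates the Mmp2 precursor on the cell surface together with Timp2, had scaled signals of 5.83 in adult liver, 3.16 in bone marrow and 8.45 in fetal liver. Bone marrow was 2.67-fold and adult liver 1.45-fold below fetal liver, and adult liver was 1.84-fold above bone marrow. A second Mmp14 probe put adult liver 1.20-fold and bone marrow 1.16-fold above fetal liver, and spike-in scaling turned the folds with bone marrow round (log2 0.89 over fetal liver, and -1.96 for adult liver over bone marrow), so the direction is uncertain. Mmp11 and Mmp23 were also measured in all 3 tissues within 4-fold. Mmp16 and Mmp28 were well above background in bone marrow and fetal liver alone, and Mmp24 in bone marrow alone, at low signal. The flag does not order adult liver and bone marrow for Mmp28 and Mmp24. Their unflagged scaled signals in adult liver (0.0604 and 0.0654) exceeded the flagged ones in bone marrow (0.0465 and 0.0294). The undetected Mmps were Mmp21 and the 6 of chromosome 9.

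Markers of endothelial cells (Pecam1, Cdh5, Kdr, Stab2 and Lyve1) summed to scaled signals of 15.0 in adult liver, 1.78 in bone marrow and 13.7 in fetal liver, with 5 of 5 well above background in each. Stellate and mesenchymal markers (Pdgfrb, Col1a1, Des, Lrat, Dcn and Reln) summed to 47.8 in adult liver, 8.53 in bone marrow and 49.5 in fetal liver, with Des and Lrat not well above background in bone marrow and Lrat not in fetal liver. Both sums were thus lowest in bone marrow, as were Mmp2, Mmp15 and Mmp19 and, described below, Adamts1 and Adamts15. The part of these cells in those differences was not tested.

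Among the Adams, 3 stood highest in bone marrow. Adam8, a sheddase of leukocytes (chr7:147164928-147164987, minus strand), had scaled signals of 0.337 in adult liver, 46.4 in bone marrow and 1.04 in fetal liver. Bone marrow was 44.7-fold above fetal liver, adult liver was 138-fold below bone marrow, and adult liver was 3.08-fold below fetal liver. Adam19, meltrin beta, a sheddase of neuregulins (chr11:45959545-45959604), had 0.0465 in adult liver, where it was not well above background, 0.686 in bone marrow and 0.0896 in fetal liver. Bone marrow was 7.66-fold above fetal liver, and adult liver at least 10.8-fold below bone marrow. Adam21, known from the testis (chr12:82659925-82659984, minus strand), had 0.0678 in adult liver, not well above background, 0.322 in bone marrow and 0.0720 in fetal liver. Its folds of 4.47 over fetal liver and at least 4.75 over adult liver lay near the threshold, and both fell below it with normexp background correction (log2 0.82 and -0.59).

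Another 3 Adams stood highest in adult liver. Adam9, meltrin gamma, a widely expressed sheddase (chr8:26060284-26060343, minus strand), had scaled signals of 9.58 in adult liver, 2.09 in bone marrow and 1.67 in fetal liver. Adult liver was 5.72-fold above fetal liver and 4.58-fold above bone marrow, and bone marrow and fetal liver differed by 1.25-fold. Under spike-in scaling, adult over fetal liver came to a log2 fold of 1.99, just under the threshold, and adult liver over bone marrow turned to -0.64. Adam9 lies next to Adam32, Adam5, Adam3 and Adam18 in a run of 5 Adams over 348 kb of chromosome 8. Of those neighbours Adam3 was well above background in all 3 tissues, Adam5 in bone marrow and fetal liver, and Adam18 and Adam32 in none.

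Adam11 and Adam23 are membrane proteins without a working catalytic site, known chiefly from the nervous system. Adam11 (chr11:102641316-102641375) had scaled signals of 3.44 in adult liver, 0.0599 in bone marrow and 0.0896 in fetal liver. Adult liver was 38.4-fold above fetal liver and 57.4-fold above bone marrow, and the further 2 probes of the gene also gave at least 23.3-fold over fetal liver. Adam23 (chr1:63639339-63639398) had 0.459 in adult liver and, not well above background, 0.00696 in bone marrow and 0.0272 in fetal liver. Adult liver was at least 11.8-fold above fetal liver and at least 17.3-fold above bone marrow. A further Adam23 probe was likewise well above background in adult liver alone, while another was dim in all tissues, and with normexp background correction the fold over fetal liver fell to 1.59 (log2). Under spike-in scaling, adult liver over bone marrow was 1.27 (log2). Adam22, their close relative, was not well above background in any tissue.

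The hepatocyte markers, which are highest in the same tissue as Adam9, Adam11, Adam23 and Mmp15, summed to scaled signals of 2416 in adult liver, 0.139 in bone marrow, with Alb, Ttr and Apoa1 not well above background, and 435 in fetal liver. The part of hepatocytes in these differences was not tested.

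Adam15 and Adam25 differed between adult liver and bone marrow alone. Adam15, known from epithelial and vascular cells (chr3:89143688-89143747, minus strand), had scaled signals of 0.934 in adult liver, 4.28 in bone marrow and 2.24 in fetal liver, and adult liver was 4.58-fold below bone marrow. A further Adam15 probe gave 2.94-fold in the same direction, so that this call rests on the probe used. Adam25, another Adam of the testis (chr8:41841247-41841306), had 0.151 in adult liver and, not well above background, 0.0130 in bone marrow and 0.0313 in fetal liver. Adult liver was at least 5.70-fold above bone marrow, while the bound over fetal liver was 3.89-fold, and with normexp background correction the first fell to a log2 fold of 1.78.

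Of the main sheddases, Adam17 was within 4-fold in each comparison, and Adam10 could not be settled in the comparisons with adult liver. Adam17, which releases tumour necrosis factor and ligands of the EGF receptor, had scaled signals of 0.941 in adult liver, 1.24 in bone marrow and 1.22 in fetal liver, and the largest of its folds was 1.32. Its second probe also gave folds of at most 1.32. Under spike-in scaling, which moves all genes, the log2 folds were 2.34 for bone marrow over fetal liver and -3.24 for adult liver over bone marrow. Adam10, which sheds Notch and cadherins, had 0.0516 in adult liver, not well above background, 0.142 in bone marrow and 0.246 in fetal liver. Adult liver was at least 3.85-fold below fetal liver and at least 2.23-fold below bone marrow, so whether these differences reach 4-fold is not determined. Adam28, a lymphocyte Adam in human, had 0.141 in adult liver, 0.0961 in bone marrow and 0.301 in fetal liver, with bone marrow 3.13-fold and adult liver 2.14-fold below fetal liver. The further Adam28 probes were not well above background in any tissue, so these folds rest on the probe used.

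Of the remaining Adams, Adam1a and Adam33 were also measured in all tissues within 4-fold. Adam4, Adam26a, Adam7 and Adam24 were well above background in bone marrow at scaled signals between 0.0330 and 0.0563, near the limit of detection, and Adam4 and Adam26a in fetal liver too. The undetected Adams were Adam1b, Adam2, Adam6, Adam12, Adam18, Adam22, Adam29, Adam30, Adam32, Adam38 and Adam39. Most of these are known from sperm or testis. RefSeq now names Adam6 and Adam38 as Adam6a and Adam20.

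Among the Adamts proteoglycanases, bone marrow was lowest in Adamts1 and Adamts15 and fetal liver highest in Adamts4 and Adamts9. Adamts1, which cuts aggrecan and versican (chr16:85795044-85795103, minus strand), had scaled signals of 1.06 in adult liver, 0.0537 in bone marrow and 1.35 in fetal liver. Bone marrow was 25.2-fold below fetal liver and adult liver 19.8-fold above bone marrow, while the livers differed by 1.27-fold. A second Adamts1 probe was not well above background in any tissue, so these folds rest on the probe used. Adamts15 (chr9:30707033-30707092, minus strand) had 0.364 in adult liver, 0.0279 in bone marrow, where it was not well above background, and 0.653 in fetal liver. Bone marrow was at least 23.4-fold below fetal liver and adult liver at least 13.0-fold above bone marrow. For both genes the livers were within 4-fold of each other and marrow stood apart. Under spike-in scaling, adult liver over bone marrow shrank to log2 folds of 1.47 for Adamts1 and 0.86 for Adamts15.

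Adamts4, or aggrecanase-1 (chr1:173189671-173189730), had scaled signals of 0.0257 in adult liver, where it was not well above background, 0.0984 in bone marrow and 0.731 in fetal liver. Adult liver was at least 11.5-fold and bone marrow 7.43-fold below fetal liver. Adamts9 (chr6:92723051-92723110, minus strand) had 0.204 in adult liver, 0.0888 in bone marrow and 1.41 in fetal liver. Adult liver was 6.92-fold and bone marrow 15.9-fold below fetal liver, and adult liver was 2.30-fold above bone marrow. A second Adamts9 probe placed bone marrow at least 4.36-fold but adult liver only at least 1.81-fold below fetal liver, and its remaining probe was well above background in bone marrow alone. The mean of its probes fell short of 4-fold in both comparisons (log2 -1.17 and -1.99). The Adamts4 bound in adult liver shrank to a log2 fold of -1.73 with normexp background correction, and the 2 marrow folds shrank to -0.58 for Adamts4 and -1.68 for Adamts9 under spike-in scaling.

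Several markers were highest in fetal liver together with Adamts4 and Adamts9. The fetal hepatoblast markers summed to 0.481 in adult liver and 0.390 in bone marrow, with Dlk1 and Gpc3 not well above background in either, and to 587.5 in fetal liver, and 3 of 3 were at least 4-fold lower in both other tissues. Of the other lists, Lyve1 (endothelial), Marco (macrophage), Col1a1 (mesenchymal) and Krt7 (bile duct) were likewise at least 4-fold below fetal liver in adult liver and in bone marrow. Each was the only gene of its list at least 4-fold lower in adult than in fetal liver. Clec4f and Vsig4 (macrophage), Lrat and Dcn (mesenchymal) and Sox9 (bile duct) went the other way, at least 4-fold higher in adult than in fetal liver. These 4 lists as wholes thus did not share the order. The part of these cells in the Adamts differences was not tested.

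Adamts5, or aggrecanase-2, did not follow this order. Its scaled signal was 0.130 in adult liver, 0.401 in bone marrow and 0.133 in fetal liver, so that marrow was 3.03-fold above fetal liver and adult liver 3.10-fold below marrow. Its probe lies 67.6 kb from that of Adamts1, the neighbour that was lowest in marrow. Adamts8, 63.2 kb from Adamts15, was not well above background in any tissue.

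Adamts7, which cuts cartilage oligomeric matrix protein (chr9:90094702-90094761), had scaled signals of 0.779 in adult liver, 0.100 in bone marrow and 0.251 in fetal liver. Adult liver was 7.76-fold above bone marrow and 3.10-fold above fetal liver, and the second probe gave 6.71-fold over bone marrow. Under spike-in scaling, the fold over bone marrow was 0.12 (log2). Adamts12, its closest relative, had 0.0206 in adult liver, not well above background, 0.0595 in bone marrow and 0.218 in fetal liver, with bone marrow 3.66-fold and adult liver at least 3.41-fold below fetal liver. The further Adamts12 probes were not well above background in any tissue, so its folds rest on the probe used, and none was called 4-fold. In the probes used, the order of the tissues was not shared by the 2 genes.

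The procollagen N-proteinases Adamts2, Adamts3 and Adamts14 gave no 4-fold difference. Adamts2 had scaled signals of 2.21 in adult liver, 2.24 in bone marrow and 0.777 in fetal liver, with adult liver 2.85-fold and bone marrow 2.88-fold above fetal liver. A second Adamts2 probe gave folds of 1.43 and 1.09, with adult liver below fetal liver, so the direction is uncertain. Adamts3 had 0.0170 in adult liver, not well above background, 0.0746 in bone marrow and 0.235 in fetal liver, with adult liver at least 3.69-fold and bone marrow 3.15-fold below fetal liver. Adamts14 and Adamts10 were measured in all tissues within 4-fold, and Adamts18 was well above background in fetal liver alone. Adamts13, which cuts von Willebrand factor and is known from liver stellate cells, was not well above background in any tissue, at 0.0142 in adult liver, 0.0205 in bone marrow and 0.00868 in fetal liver. The other undetected Adamts genes were Adamts6, Adamts8, Adamts16, Adamts19 and Adamts20.

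No Timp was called 4-fold apart on the main scale. Timp1 (chrX:20451675-20451733) had scaled signals of 1.53 in adult liver, 1.25 in bone marrow and 1.41 in fetal liver, and its folds were 1.08, 1.13 and 1.22. Timp3, which is bound to the matrix (chr10:85811696-85811755), had 2.20 in adult liver, 2.55 in bone marrow and 1.91 in fetal liver, with folds of 1.15, 1.33 and 1.16. In log2, the Timp1 folds were 0.12, -0.17 and 0.29 and those of Timp3 0.20, 0.41 and -0.22, beside a scanner error of 0.20. Timp2, which also takes part in Mmp2 activation (chr11:118163146-118163205, minus strand), had 7.59 in adult liver, 11.1 in bone marrow and 3.01 in fetal liver. Adult liver was 2.53-fold and bone marrow 3.69-fold above fetal liver. Timp4 had 0.0206 in adult liver, not well above background, 0.0462 in bone marrow and 0.0894 in fetal liver, with bone marrow 1.94-fold below fetal liver. The fold of adult liver was at least 1.40 below fetal liver, and no fold was formed between adult liver and bone marrow, so a 4-fold difference of Timp4 is undetermined in both.

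The scaling sets the Timp folds. Under spike-in scaling, bone marrow over fetal liver came to log2 folds of 2.14 for Timp1, 4.19 for Timp2 and 2.72 for Timp3, and adult liver over bone marrow to -2.55, -3.39 and -3.06. Under median scaling, bone marrow over fetal liver was 0.27 in place of -0.17 for Timp1, and Timp2 passed 4-fold at 2.33. While Timp1, Timp2 and Timp3 stayed within 4-fold on the main scale, Mmp9 differed 424-fold and Mmp8 186-fold between bone marrow and fetal liver.

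**Figure D4:**
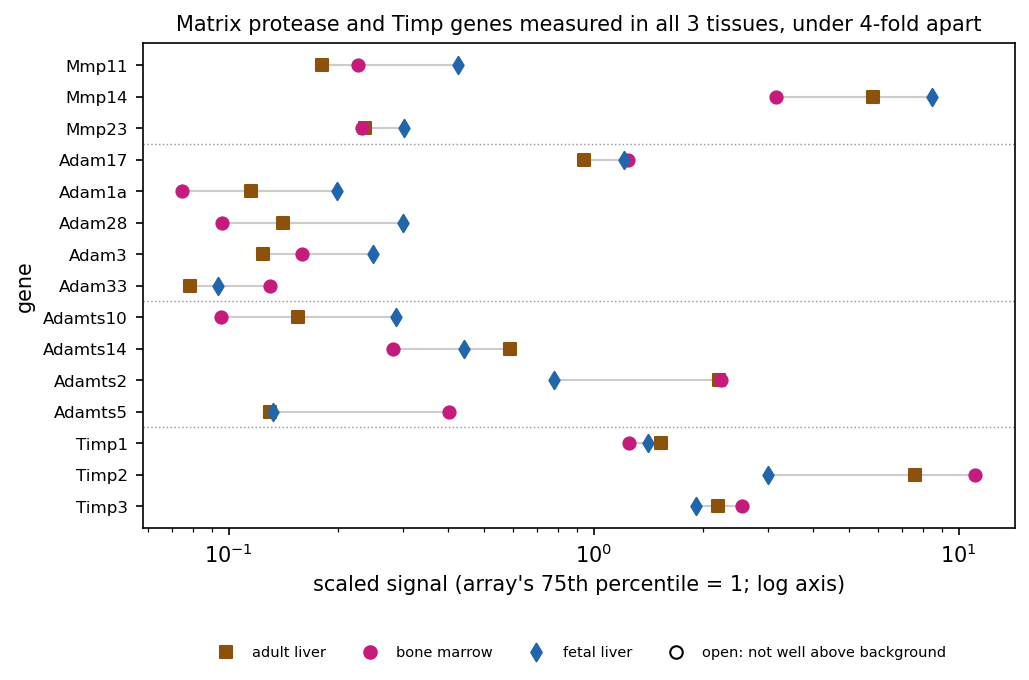
Scaled signal on a log axis (array's 75th percentile = 1) of the Mmp, Adam, Adamts and Timp genes that were well above background in all 3 tissues and under 4-fold apart in each comparison, in adult liver (squares), bone marrow (circles) and fetal liver (diamonds). Dotted lines separate the families, and the symbols of Timp1, Timp3 and Adam17 lie close together (Adam17 at 0.941, 1.24 and 1.22).

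Further probes gave a check on some of the calls. Of the 7 genes called between adult and fetal liver, 3 had further probes, and for 1 of them all probes were at least 4-fold apart the same way. Of the 14 called between bone marrow and fetal liver, 4 had further probes, which all agreed for 1. Of the 19 called between adult liver and bone marrow, 8 had them, and they all agreed for 3. No gene had a probe 4-fold apart the other way. The rest were within 4-fold or dim in a further probe.

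**Figure D5:**
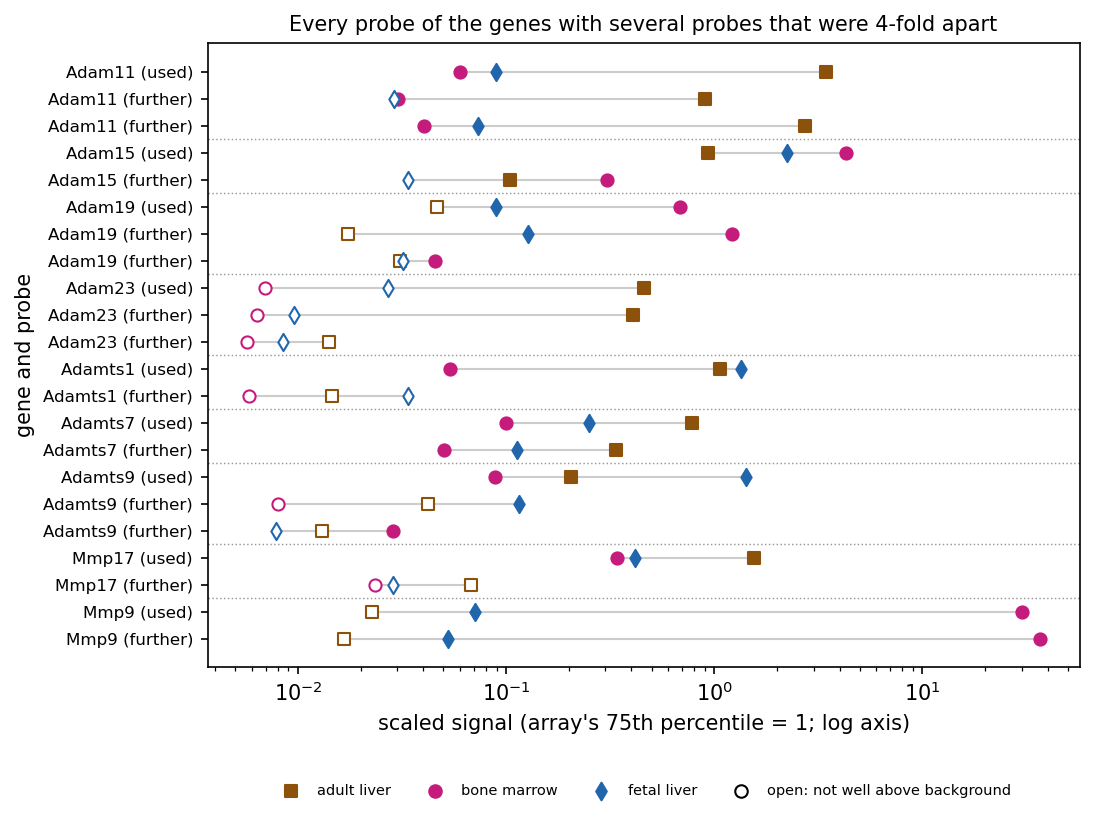
Scaled signal on a log axis (array's 75th percentile = 1) of every probe of the 4-fold genes that had several probes, in adult liver (squares), bone marrow (circles) and fetal liver (diamonds), with open symbols for probes not well above background. The probes of Adamts7 and Mmp9 keep the order of the tissues, and those of Adam11 are all highest in adult liver. A further probe of each of Adam19, Adam23, Adamts1, Adamts9 and Mmp17 is dim or nearly flat.

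Genes of the plasminogen system, whose product plasmin activates several Mmps, were set beside the families. Of 13 compared between bone marrow and fetal liver, 3 were higher and 4 lower in marrow, beside 8.29% and 9.33% of all named genes, with a median log2 fold of -0.087 over the measured ones. The urokinase receptor Plaur had scaled signals of 0.154 in adult liver, 14.6 in bone marrow and 0.253 in fetal liver, and was 57.9-fold above fetal liver in marrow, the direction of Mmp9. Plasminogen itself, Plg, had 109 in adult liver, 0.0113 in bone marrow, not well above background, and 11.2 in fetal liver, and was 9.74-fold higher in adult than in fetal liver. Of 11 compared between the livers, 3 were higher in adult liver and none lower (median 0.45), beside 14.1% and 12.1% of all genes. Of 12 compared between adult liver and bone marrow, 4 were higher and 4 lower in adult liver (median 0.90), beside 18.8% and 15.0%.

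Other matrix-degrading proteases included serine proteases that, like Mmp8 and Mmp9, are stored in neutrophils. Of 18 compared between bone marrow and fetal liver, 7 were higher and 2 lower in marrow (median 0.17), beside 8.29% and 9.33% of all genes. Ctsg, cathepsin G, had 0.267 in adult liver, 151 in bone marrow and 4.25 in fetal liver. Elane, neutrophil elastase, was 198-fold and Prtn3, proteinase 3, 27.8-fold above fetal liver in marrow. Among the convertases that activate metalloproteinase precursors, Furin had 47.9 in adult liver, 6.44 in bone marrow and 5.36 in fetal liver, and Pcsk6 had 57.0, 0.0425 and 1.36, so adult liver was 8.93-fold and 41.9-fold above fetal liver. Of 15 compared between the livers, 6 were higher and 2 lower in adult liver (median 1.87), beside 14.1% and 12.1%, and of 18 compared with bone marrow 7 were higher and 6 lower (median 1.47), beside 18.8% and 15.0%.

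Among 18 other regulators compared between bone marrow and fetal liver, 3 were higher and 3 lower in marrow (median 0.16), beside 8.29% and 9.33% of all genes. Lcn2, the neutrophil lipocalin that forms a complex with Mmp9, had 0.151 in adult liver, 75.1 in bone marrow and 0.115 in fetal liver, and was 655-fold above fetal liver in marrow. Tspan33, a tetraspanin partner of Adam10, had 12.3 in adult liver, 109 in bone marrow and 154 in fetal liver, and was 12.5-fold lower in adult than in fetal liver. Of 17 compared between the livers, 2 were higher and 5 lower in adult liver (median -0.38), beside 14.1% and 12.1%, and of 16 compared with bone marrow 2 were higher and 5 lower (median -0.85), beside 18.8% and 15.0%. Of 20 sheddase substrates compared, 7 were higher and 4 lower in bone marrow than in fetal liver (median 1.29), beside 8.29% and 9.33%. Among these, Egfr had 25.9 in adult liver, 0.254 in bone marrow and 0.546 in fetal liver, and of 19 substrates compared between the livers 2 were higher and 2 lower in adult liver (median 1.16), beside 14.1% and 12.1%. Of 21 compared with bone marrow, 4 were higher and 5 lower in adult liver (median -0.18), beside 18.8% and 15.0%.

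Of the substrates of Adamts enzymes, none of 8 was higher and 3 were lower in bone marrow than in fetal liver (median -0.92), beside 8.29% and 9.33% of all genes. In adult against fetal liver, 1 of 7 was higher and 3 were lower (median -2.23), beside 14.1% and 12.1%. In adult liver against bone marrow, 2 of 8 were higher and 2 lower (median -0.37), beside 18.8% and 15.0%. Col1a1, a substrate of the procollagen N-proteinases, had 2.89 in adult liver, 3.99 in bone marrow and 26.4 in fetal liver, with fetal liver highest. Col3a1 had 3.47 in adult liver, 0.334 in bone marrow and 10.2 in fetal liver, and was 30.6-fold lower in marrow than in fetal liver. Vwf, the substrate of the undetected Adamts13, had 2.65 in adult liver, 16.1 in bone marrow and 10.3 in fetal liver.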

How the data were processed

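The submitters' processing notes name Agilent Feature Extraction 10.5.1.1 as the scanner software. The deposited processed signal intensity is background-subtracted and spatially detrended, with surrogate values for dim spots, and is not normalized between arrays, per the file headers, which also place the 3 arrays on 1 slide and in 1 scan. The deposited table of the whole series was not used. Coordinates are those of the array file (mm9), and no exon annotation of that build was used here.

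From the intensities, log2 of the processed signal minus the array's 75th percentile over gene spots was computed (Python 3.11.15, numpy 2.4.6, pandas 2.3.3), without control and outlier spots, and spots of 1 probe were averaged. Of 41174 probes, 8489 stayed unnamed. A gene was represented by the probe well above background on most arrays, ties going to the brightest. Normexp correction used limma 3.58.1 (R 4.3.3), and quantile normalization was computed in Python. The fold calculation was tested on simulated data. Folds, counts and medians were computed without a test, since n = 1 per tissue. Scanner errors of a log2 fold come from the deposited signal error intensity.

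Genes at least 4-fold apart and a fixed set of well-known members are named with all signals. Of pathway lists, at most 4 genes per list and direction are named, by measured fold, plus Vwf as the substrate of Adamts13, chosen after its values were seen. The members and lists were chosen with earlier results of these data known. The Ets and TATA motifs were added after the data were seen. No comparison of protein sequences was made.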

Additional observations from a re-analysis of the deposited data

How the results depend on the processing

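No paired analysis was possible because each tissue had 1 array and the labels give no replicate numbers. Leaving out a replicate was likewise not possible. The share of all named genes called at the same setting is given in brackets after each count. For adult over fetal liver, the 4 genes higher became 10 of 44 at a 2-fold threshold (26.8%). They became 6 of 43 under median scaling (14.9%) and 6 of 42 with quantile normalization (14.2%). The 3 lower became 1 of 38 with normexp correction (7.91%), 7 of 44 under spike-in scaling (18.1%) and 1 of 27 with measured folds alone (9.91%). These 3 became 8 of 73 without the filter on dim probes (11%), 11 of 44 at 2-fold (27%) and 1 of 44 at 8-fold (5.96%). For bone marrow over fetal liver, the 7 higher became 19 of 46 under spike-in scaling (53.7%), and the 7 lower became 2 of 46 (2.22%). The 7 lower became 4 of 38 with measured folds alone (6.86%), 17 of 46 at 2-fold (25.1%) and 4 of 46 at 8-fold (4.63%). For adult liver over bone marrow, the 11 higher became 2 of 47 under spike-in scaling (5.81%), 6 of 24 with measured folds alone (15.8%) and 6 of 39 at 8-fold (11.5%). The 8 lower became 32 of 47 (66.5%), 2 of 24 (12.2%) and 5 of 39 (8.81%) at these settings. The median of -0.35 for adult over fetal liver moved to -0.081 with normexp correction and -0.88 under spike-in scaling. The median of -0.61 for bone marrow over fetal liver moved to -0.16 under median scaling, -0.21 with quantile normalization and 1.70 under spike-in scaling. The median of 0.42 for adult liver over bone marrow moved to 0.050 under median scaling and -2.42 under spike-in scaling. Spike-in scaling reversed adult liver over bone marrow for Adam9 (-0.64), Mmp17 (-0.65) and Mmp2 (-0.19, all log2); the cause of these changes was not tested. The spike-in factor rests on 7 probes. Median scaling moved the median of all genes by 0.45 (log2) for bone marrow over fetal liver and -0.37 for adult liver over bone marrow, and ended the calls of Adam9 and Mmp17 there. The 14 calls between bone marrow and fetal liver kept their direction in every alternative that gave them a value. Normexp correction ended 4 of them (Adam21, Mmp13, Mmp15 and Mmp19). Spike-in scaling left 9, ending Adamts4, Adamts9, Mmp15, Mmp19 and Mmp2, and the mean of all probes ended Adamts9. Of the 19 calls between adult liver and bone marrow, normexp correction left 14 and the mean of all probes 17. Spike-in scaling left 10 of the 18 that it gave a value. Of the 7 calls between the livers, normexp correction left 4, the mean of all probes 5 and spike-in scaling 6. Quantile normalization, the brightest probe, the percentile over detected probes and keeping outlier spots ended no call. Dim signals limit the bounds, which are approximate, and arrays without replicates cannot give the spread between animals.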
